A study of Homo sapiens with 12 samples.

Results

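A group of 10 genes that control cell cycle transcription was followed through the series: *E2F1*, *E2F2*, *E2F3*, *E2F7* and *E2F8*, the pocket protein genes *RB1*, *RBL1* and *RBL2*, and the activators *MYBL2* and *FOXM1*. They were picked by symbol, and all 10 members were found among the 60580 genes listed. The cells were HCT116, a human colorectal cancer line with functional p53, either wild-type (WT) or lacking both miR-34a and miR-34b/c after CRISPR-Cas9 deletion (*miR-34a/b/c-KO*, KO below). Both genotypes received the solvent DMSO or the antimetabolite 5-FU (4 µM for 48 h), which damages DNA and activates p53. Per the study's methods, KO and WT lines were grown from single cells and the WT controls had received the Cas9 plasmid without a guide RNA. Several independent clones were obtained per genotype, and it is not stated whether the replicates of a group were different clones. Where they were not, clone and genotype cannot be told apart, and the p-values below measure only the spread between cultures of the same line.

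E2F proteins bind the promoters of genes for DNA replication and mitosis. E2F1, E2F2 and E2F3 are activators that the retinoblastoma protein (RB1) holds inactive until cyclin-dependent kinases phosphorylate it. E2F7 and E2F8 are atypical E2Fs that bind DNA without a DP partner and repress. RBL1 (p107) and RBL2 (p130) join E2F4 or E2F5, a DP protein and the MuvB core (LIN9, LIN37, LIN52, LIN54, RBBP4) into the repressor complex DREAM, which p53 engages through p21 (CDKN1A). When cells re-enter the cycle the MuvB core binds MYBL2 (B-MYB) and then FOXM1, and with them turns on genes of G2 and mitosis. miR-34 microRNAs are encoded by p53 target genes and repress mRNAs through short sites in the 3′ UTR.

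The deleted microRNAs are shown with their seed (bases 2 to 8, in capitals), which pairs with target mRNAs. miR-34a-5p (chr1:9151735-9151756, minus strand) and miR-34b-5p (chr11:111512950-111512972, plus strand) have seeds shifted by 1 base against each other, and miR-34c-5p was deleted with them. Sequences were taken from RefSeq (GRCh38.p14).
hsa-miR-34a-5p: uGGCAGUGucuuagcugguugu
hsa-miR-34b-5p: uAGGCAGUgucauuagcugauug

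The letters CACTGCC, which pair with bases 2 to 8 of miR-34a-5p, and ACTGCCA, which pair with bases 2 to 7 followed by an A, were searched in the 3′ UTR of 1 transcript per gene (GENCODE 44, GRCh38). Of the 10 members, *E2F2*, *E2F3* and *FOXM1* held such letters, against 20.9% of 19228 3′ UTRs in all. They are printed with the matching letters in capitals: *E2F2* (chr1:23508856-23508883, minus strand, from base 1016 of a 3′ UTR of 3442), *E2F3* (chr6:20493142-20493169, plus strand, from base 2730 of 3284) and *FOXM1* (chr12:2858221-2858248, minus strand, from base 409 of 958). A match of letters is a description, and RNA counts do not measure a site. The 3′ UTRs searched had a median length of 1064 bases, and a longer one has more room for a match. Letters for miR-34b-5p were not searched, so a member without a match may still hold a site. For *FOXM1*, the methods include a reporter with the seed match of its 3′ UTR deleted, an experiment not analysed here.
E2F2: ggtcagattaaaacaaaaaACTGCCAaa
E2F3: tagcaattaatttgtaaaCACTGCCAga
FOXM1: cttagatcattatccagagACTGCCAga

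Promoter windows of RefSeq (250 bases before and 50 after a start) were matched for 8 members, and that of *RB1* lies at a start inside the gene. Letters of E2F sites (TTTCCCGC, TTTGGCGC, TTTCGCGC or TTTGCCGC on either strand) occurred in windows of *E2F1*, *E2F2*, *E2F3* and *RBL1*, against 3.31% of 35116 windows of the same length, and were not found in those of *E2F7*, *RBL2* and *MYBL2*. Only these exact letters were searched, so windows without them may hold E2F sites spelled otherwise. Letters of the cell cycle homology region, the element bound by the MuvB core (TTTGAA or TTCGAA), occurred in windows of *E2F3* and *RBL2*, against 16.4% of all windows. The 100 bases from 80 before to 20 after the start are printed for the 4 members with E2F letters, with both kinds of letters in capitals. They are *E2F1* (chr20:33686366-33686465, minus strand), *RBL1* (chr20:37095978-37096077, minus strand), *E2F2* (chr1:23531214-23531313, minus strand) and *E2F3* (chr6:20401799-20401898, plus strand). The window of *E2F7* (chr12:77065550-77065649, minus strand), the member with the largest change, is printed beside them.
E2F1: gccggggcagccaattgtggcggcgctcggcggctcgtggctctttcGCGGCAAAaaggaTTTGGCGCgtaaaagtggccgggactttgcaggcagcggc
RBL1: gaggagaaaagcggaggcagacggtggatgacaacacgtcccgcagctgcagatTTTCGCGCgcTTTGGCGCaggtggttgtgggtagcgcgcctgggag
E2F2: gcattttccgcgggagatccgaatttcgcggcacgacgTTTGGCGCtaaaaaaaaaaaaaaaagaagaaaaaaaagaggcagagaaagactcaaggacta
E2F3: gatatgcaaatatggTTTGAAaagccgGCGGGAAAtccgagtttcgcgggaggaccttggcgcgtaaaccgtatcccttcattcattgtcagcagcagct
E2F7: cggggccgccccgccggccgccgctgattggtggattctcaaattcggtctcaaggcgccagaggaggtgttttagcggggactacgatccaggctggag

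RNA was sequenced from 3 libraries per group, and the authors deposited raw counts per gene. The file labelled as replicate 1 of WT cells with 5-FU carries the column name of a WT DMSO sample and equals replicate 3 of WT cells with DMSO in every gene, so it was left out and WT cells with 5-FU are represented by replicates 2 and 3. The 11 libraries held 22831415 to 39064210 counts. Levels are given as CPM, counts scaled to a common library total after upper-quartile scaling. A change "passed the test" at FDR under 0.05 (edgeR, quasi-likelihood, adjusted over 16123 genes) and was "called" where the fold change also exceeded 1.5. All 10 members passed the filter on low counts. *CDKN1A* rose with 5-FU in both genotypes, by 3.64 ± 0.05 (SE) on the log2 scale in WT cells and by 2.40 ± 0.05 in KO cells, and stood at 167 CPM in WT and 469 CPM in KO cells with DMSO. The mature microRNAs are not measured in these counts, which therefore give no check of the deletion. It was examined by PCR and qPCR in the study, data not analysed here. The host transcript *MIR34AHG* reached 4.84 ± 0.47 CPM (SD, n = 3) in WT and 22.2 ± 0.29 CPM (SD, n = 3) in KO cells with DMSO. Of 8 epithelial markers 7 had counts, *CDX1* being at 0, and their summed level was 5611 to 5887 CPM in WT and 5775 to 5980 CPM in KO cells with DMSO, and 11550 to 12690 CPM in WT and 8991 to 9470 CPM in KO cells with 5-FU. Fibroblast markers summed to 22.1 to 71.8 CPM, leukocyte markers to 15.9 to 36.8 CPM and endothelial markers to 1.28 to 6.61 CPM. The part of these differences in the results below was not tested. In bulk RNA, fewer cells in a cycle phase and less RNA per cell cannot be told apart.

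The main pattern of the 10 genes was a response to 5-FU that differed between the genotypes. In WT cells 5-FU lowered 6 of the 10 members, where 28.3% of all genes passed as lower (*E2F1*, *E2F2*, *E2F8*, *RBL1*, *MYBL2* and *FOXM1*) and raised *E2F7*. In KO cells 5-FU raised 9 of 10, where 26.6% of all genes passed as higher, among them each of these 6, and *RBL2* was the exception. The interaction of genotype and treatment, which compares the 2 responses directly, passed the test for 8 of 10 members, all in the direction of a higher response in KO cells, against 10.1% of all genes in that direction and 16% in the other. With the requirement of a 1.5-fold difference it was called for 6 members (*E2F1*, *E2F2*, *E2F7*, *E2F8*, *RBL1* and *MYBL2*), against 3.42% and 6.66% of all genes. No member passed in the other direction by edgeR, by DESeq2 or at an unadjusted p under 0.05 (0 each). The median interaction over the 10 members was 0.95 on the log2 scale, beside −0.09 over all genes tested.

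**Figure D1:**
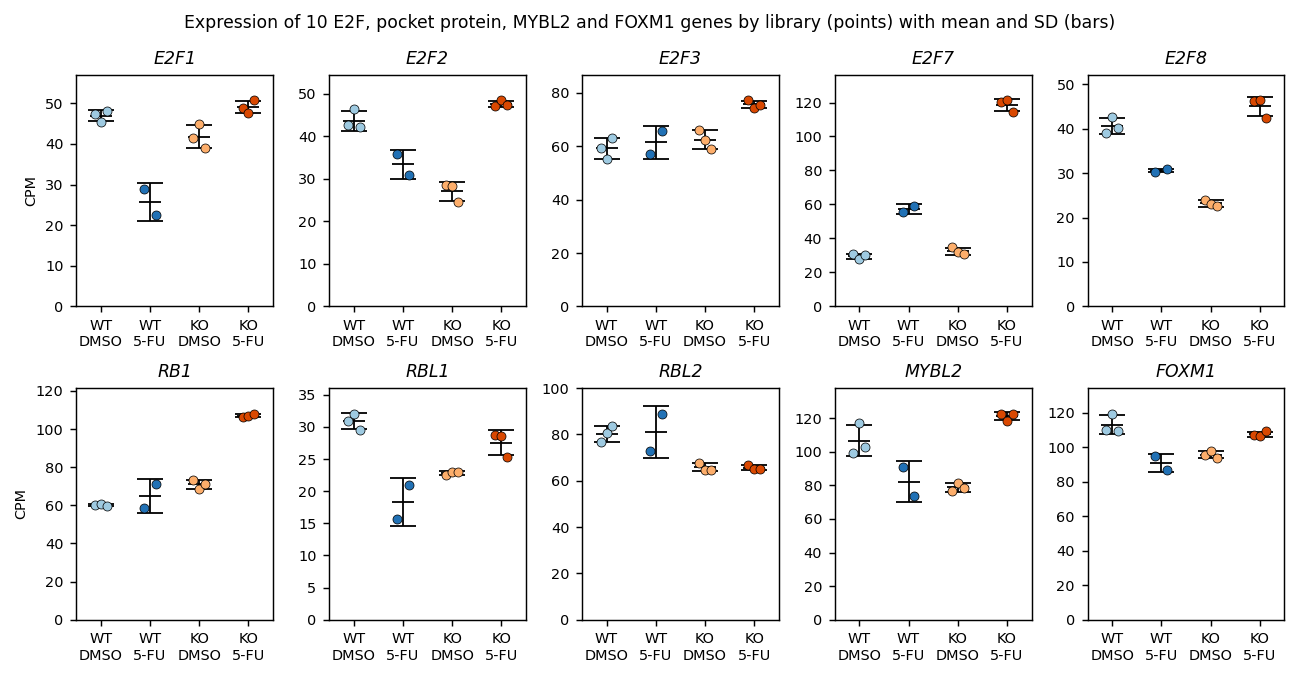
CPM of each member (y axis, starting at 0) in WT and KO cells with DMSO or 5-FU; points are libraries (n = 3, and n = 2 for WT with 5-FU), horizontal bars the mean and whiskers the SD. E2F7 reached 115 to 121 CPM in KO cells with 5-FU and stayed at or below 59.4 CPM elsewhere, while RBL2 was at 64.7 to 67.7 CPM in all 6 KO libraries.

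The first of the activator E2Fs, *E2F1* (chr20:33675477-33686385, minus strand), is the E2F most closely tied to entry into S phase. With DMSO it was at 47.3, 45.4 and 48.2 CPM in WT and at 41.4, 44.8 and 39.1 CPM in KO cells. With 5-FU it was at 29.0 and 22.4 CPM in WT and at 48.8, 47.7 and 50.7 CPM in KO cells. The WT libraries with 5-FU were thus the 2 lowest of all 11, and the KO libraries with 5-FU were above those with DMSO. *E2F1* fell by 0.87 ± 0.09 (SE, FDR 7.69e-07) on the log2 scale in WT cells, a 1.82-fold decrease, and rose by 0.23 ± 0.08 (FDR 0.0212) in KO cells, so that with 5-FU KO cells had 1.90-fold as much as WT cells (log2 0.93 ± 0.09, FDR 7.98e-07). The increase in KO cells no longer passed the test without KO DMSO replicate 1 (FDR 0.0542) or 3 (FDR 0.101), or without KO 5-FU replicate 3 (FDR 0.0738). With DMSO the KO value was lower by a log2 of −0.17 ± 0.08 with an FDR of 0.0972, which did not pass the test although the groups did not overlap. It passed by DESeq2 (FDR 0.0458), without the filter on low counts (FDR 0.0319) and without WT 5-FU replicate 2 (FDR 0.0177) or 3 (FDR 0.017).

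*E2F2* (chr1:23506438-23531233, minus strand), a second activator with a role overlapping that of *E2F1*, showed the genotype difference already without 5-FU. It was at 42.5, 46.3 and 42.1 CPM in WT and at 28.4, 28.2 and 24.5 CPM in KO cells with DMSO. After 5-FU it was at 35.8 and 31.0 CPM in WT and at 47.1, 48.4 and 47.3 CPM in KO cells. The order of the genotypes thus turned, with KO cells lowest with DMSO and highest with 5-FU and no overlap between groups in either. *E2F2* was 1.62-fold lower in KO than in WT cells with DMSO (log2 −0.69 ± 0.08, FDR 1.91e-06), fell with 5-FU in WT cells (−0.38 ± 0.08, FDR 0.000883) and rose 1.76-fold in KO cells (0.82 ± 0.08, FDR 1.17e-07). Its interaction of 1.20 ± 0.11 (FDR 2.12e-06) was larger than that of *E2F1* (1.10 ± 0.12, FDR 1.26e-05) by less than either SE.

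*E2F3* (chr6:20401879-20493714, plus strand), the activator E2F with the 8-base miR-34 match shown above, varied least among the E2Fs. It was at 59.2, 55.3 and 63.3 CPM in WT and at 66.2, 62.3 and 59.2 CPM in KO cells with DMSO, and the groups overlapped. After 5-FU its level was 57.2 and 65.9 CPM in WT and 77.2, 74.5 and 75.4 CPM in KO cells, the 3 highest libraries of the 11. Only changes below 1.5-fold passed the test, an increase with 5-FU in KO cells (log2 0.28 ± 0.07, FDR 0.0017) and a higher level in KO than in WT cells with 5-FU (0.30 ± 0.07, FDR 0.00288). With DMSO the difference between genotypes was 0.07, with a 95% interval of −0.07 to 0.21 (FDR 0.385), and its interaction of 0.23 (95% interval 0.02 to 0.43, FDR 0.102) did not pass the test. The interaction passed with TMM factors (0.29, FDR 0.0495), by DESeq2 (0.31, FDR 0.0261) and without WT 5-FU replicate 3 (0.33, FDR 0.00981).

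The atypical E2Fs, which repress E2F targets, gave the largest values. *E2F7* (chr12:77021248-77065569, minus strand) is itself a target of p53 and of *E2F1*. It was at 30.5, 27.7 and 30.3 CPM in WT and at 34.8, 31.9 and 30.6 CPM in KO cells with DMSO. In the presence of 5-FU it stood at 55.3 and 59.4 CPM in WT and at 120, 121 and 115 CPM in KO cells. *E2F7* was the only member called as higher with 5-FU in both genotypes: it rose 1.94-fold in WT cells (log2 0.96 ± 0.07, FDR 5.92e-09) and 3.67-fold in KO cells (1.87 ± 0.06, FDR 5.1e-13). With DMSO the genotypes differed by 0.13 ± 0.07, which did not pass (FDR 0.111), and with 5-FU KO cells had 2.07-fold the WT level (1.05 ± 0.07, FDR 5.17e-09).

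*E2F8* (chr11:19224063-19241620, minus strand), the second atypical E2F, shares many targets with *E2F7*. It stood at 39.0, 42.7 and 40.2 CPM in WT and at 24.0, 23.0 and 22.5 CPM in KO cells with DMSO. With 5-FU it was at 30.3 and 30.9 CPM in WT and at 46.1, 46.4 and 42.5 CPM in KO cells. No groups overlapped in these comparisons, and the KO libraries held both the lowest and the highest levels. It was 1.75-fold lower in KO than in WT cells with DMSO (log2 −0.81 ± 0.07, FDR 6.39e-08), the largest difference of the 10 members in that comparison, fell with 5-FU in WT cells (−0.41 ± 0.07, FDR 0.000127) and rose 1.94-fold in KO cells (0.96 ± 0.07, FDR 3.13e-09). Its interaction, 1.37 ± 0.10 (FDR 1.97e-07), was the largest of the members. Its level with 5-FU was 1.47-fold as high in KO as in WT cells (0.56 ± 0.07, FDR 1e-05), a difference past the fold limit with TMM factors (0.60), by DESeq2 (0.61) and without KO 5-FU replicate 3 (0.60). *E2F7* and *E2F8* thus differed in WT cells, where 5-FU raised the first and lowered the second.

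**Figure D2:**
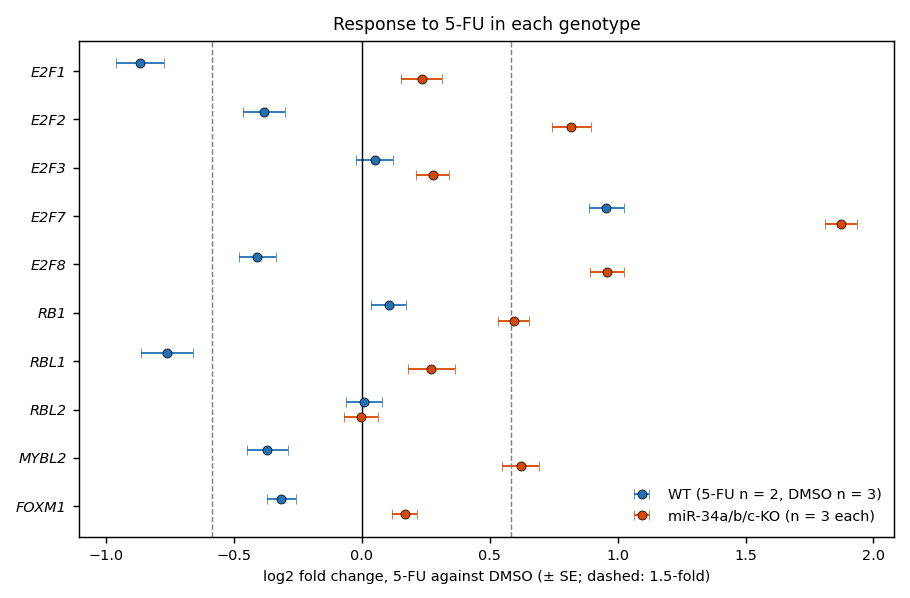
Log2 fold change of each member with 5-FU against DMSO (x axis) in WT cells (blue) and KO cells (orange), with SE; dashed lines mark a 1.5-fold change. E2F1, E2F2, E2F8, RBL1, MYBL2 and FOXM1 lie left of 0 in WT and right of 0 in KO cells, E2F7 lies right of the dashed line in both, and RBL2 lies at 0.01 and −0.00.

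Of the pocket protein genes, *RB1* (chr13:48303744-48599436, plus strand), the retinoblastoma tumour suppressor, was the one with a higher level in KO cells under both treatments. It was at 60.0, 60.9 and 59.8 CPM in WT and at 73.2, 68.7 and 71.0 CPM in KO cells with DMSO. With 5-FU it was at 58.6 and 71.1 CPM in WT, overlapping the WT libraries with DMSO, and at 106, 107 and 108 CPM in KO cells. *RB1* was higher in KO than in WT cells with DMSO by a log2 of 0.24 ± 0.06 (FDR 0.00486), below 1.5-fold, and with 5-FU by 0.73 ± 0.07 (FDR 3.55e-07). It rose 1.51-fold with 5-FU in KO cells (0.59 ± 0.06, FDR 3.64e-07), just past the fold limit, and was below it without KO DMSO replicate 2 (0.57). In WT cells the change was 0.10 with a 95% interval of −0.04 to 0.25 (FDR 0.198). Without WT 5-FU replicate 2 that change was 0.24 (FDR 0.00105), and without replicate 3 it was −0.04. The interaction of 0.49 ± 0.09 (FDR 0.00113) passed the test and was below 1.5-fold, except without WT 5-FU replicate 3 (0.63).

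*RBL1* (chr20:36996349-37095997, minus strand) encodes p107, the pocket protein that is itself made from an E2F-controlled promoter. It was at 31.0, 32.1 and 29.6 CPM in WT and at 22.4, 23.0 and 22.9 CPM in KO cells with DMSO. After 5-FU its level was 15.7 and 20.9 CPM in WT and 28.7, 28.5 and 25.3 CPM in KO cells. Its groups did not overlap in any of the comparisons. *RBL1* fell 1.70-fold with 5-FU in WT cells (log2 −0.76 ± 0.10, FDR 8.82e-06) and rose by 0.27 ± 0.09 (FDR 0.0178) in KO cells, and its interaction was 1.03 ± 0.14 (FDR 6.07e-05). As a ratio, this gene differed most of the 10 members between the 2 WT libraries with 5-FU, and without replicate 2 the decrease was −0.56, below the fold limit, and the difference between genotypes with 5-FU was 0.40 in place of 0.60 (FDR 0.000181). That difference was also below the fold limit without KO 5-FU replicate 1 (0.56) or 2 (0.57), and the increase in KO cells then had FDRs of 0.0671 and 0.0599.

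*RBL2* (chr16:53433977-53491648, plus strand) encodes p130, the pocket protein of DREAM in resting cells, and was the one member with no change after 5-FU that passed the test in either genotype. It was at 76.8, 80.5 and 83.7 CPM in WT and at 67.7, 64.9 and 64.7 CPM in KO cells with DMSO. In the presence of 5-FU it stood at 73.0 and 89.0 CPM in WT and at 66.8, 65.2 and 65.0 CPM in KO cells. KO cells were lower under both treatments, by a log2 of −0.29 ± 0.06 with DMSO (FDR 0.00164) and −0.30 ± 0.07 with 5-FU (FDR 0.00238). The response to 5-FU was −0.00 in KO cells (95% interval −0.14 to 0.14), and the interaction was −0.01 (95% interval −0.22 to 0.19, FDR 0.948), with a sign that changed with TMM factors (0.05) and DESeq2 (0.07). In WT cells the change was 0.01 with both libraries (FDR 0.924), 0.14 without replicate 2 (FDR 0.0386) and −0.14 without replicate 3 (FDR 0.043). *RBL2* shares 609 exon bases with *AKTIP* on the opposite strand, which had 489 to 805 counts, and whether strand was used in counting is not stated, so reads of the 2 genes cannot be told apart there.

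*MYBL2* (chr20:43667019-43716495, plus strand), the MYB protein that binds the MuvB core in S phase, was at 99.5, 117 and 103 CPM in WT and at 76.5, 81.6 and 78.3 CPM in KO cells with DMSO. With 5-FU it was at 90.9 and 73.6 CPM in WT and at 123, 118 and 123 CPM in KO cells. Every KO library with 5-FU was above every other library. *MYBL2* was lower in KO than in WT cells with DMSO (log2 −0.43 ± 0.07, FDR 0.000134), fell with 5-FU in WT cells (−0.37 ± 0.08, FDR 0.000881) and rose 1.54-fold in KO cells (0.62 ± 0.07, FDR 1.56e-06). With 5-FU it was 1.47-fold as high in KO as in WT cells (0.56 ± 0.08, FDR 3.22e-05), and its interaction was 0.99 ± 0.11 (FDR 8.76e-06). That 1.47-fold difference was past the fold limit with TMM factors (0.60), by DESeq2 (0.61) and without WT 5-FU replicate 2 (0.72).

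*FOXM1* (chr12:2857680-2877174, minus strand), the forkhead activator of mitotic genes, moved as *MYBL2* did in direction and by less. It was at 110, 120 and 110 CPM in WT and at 95.5, 98.1 and 94.0 CPM in KO cells with DMSO. After 5-FU its level was 94.7 and 87.1 CPM in WT and 107, 107 and 109 CPM in KO cells. The highest KO library with 5-FU (109.3 CPM) was almost level with the lowest WT library with DMSO (109.6 CPM). All 4 differences passed the test and none reached 1.5-fold: −0.24 ± 0.05 between KO and WT with DMSO (FDR 0.000962), −0.31 ± 0.06 with 5-FU in WT cells (FDR 0.000144), 0.17 ± 0.05 with 5-FU in KO cells (FDR 0.00865) and 0.24 ± 0.06 between KO and WT with 5-FU (FDR 0.00195). The interaction was 0.48 ± 0.08 (FDR 0.00025). *FOXM1* shares 782 exon bases with *ITFG2* on the opposite strand, which had 197 to 421 counts, and reads of the pair cannot be told apart there without strand.

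Counted over the 10 members, the comparisons differed in direction. Between KO and WT cells with DMSO, 6 members passed the test as lower (*E2F2*, *E2F8*, *RBL1*, *RBL2*, *MYBL2* and *FOXM1*) and *RB1* as higher, against 21.9% and 24.5% of all genes. *E2F2* and *E2F8* were called as lower, where 4.97% of all genes were, and none was called as higher (0 by edgeR and by DESeq2, with 1 at an unadjusted p under 0.05), where 9.1% were. With 5-FU in WT cells, 6 members passed as lower and 1 as higher, against 28.3% and 31.9% of all genes, and the called members were *E2F1* and *RBL1* as lower and *E2F7* as higher, against 9.38% and 18.5%. The median over the members was −0.26 in the first and −0.34 in the second of these comparisons, beside 0.03 over all genes in each.

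With 5-FU in KO cells, 9 members passed as higher and none as lower (0 by edgeR, by DESeq2 and at an unadjusted p under 0.05), against 26.6% and 33.8% of all genes. In all 5 were called as higher (*E2F2*, *E2F7*, *E2F8*, *RB1* and *MYBL2*), where 13.3% of all genes were, and none as lower, where 12% were. Between KO and WT cells with 5-FU, 9 passed as higher and *RBL2* as lower, against 21.6% and 28% of all genes. *E2F1*, *E2F7*, *RB1* and *RBL1* were called as higher, against 7.58%, and none as lower (0 by edgeR and by DESeq2, with 1 at an unadjusted p under 0.05), against 10.6%. The medians over the members were 0.43 and 0.56, beside −0.06 and −0.05 over all genes. These comparisons share libraries, so they are not independent of each other. With the copied file used as labelled, no gene at all was called with 5-FU in WT cells, so no member was either (0 of 16123 genes), and 2 members were called between the genotypes with 5-FU (beside 4), where 16.1% of all genes were. With 1 RUVg factor in the model, a factor that lay with 98.2% of its variance between the treatments, no member was called with 5-FU in WT or in KO cells (0 each), as was the case for nearly all genes (3 and 1 of 16123 called), while 6 members were called in the interaction, where 5.49% of all genes were.

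**Figure D3:**
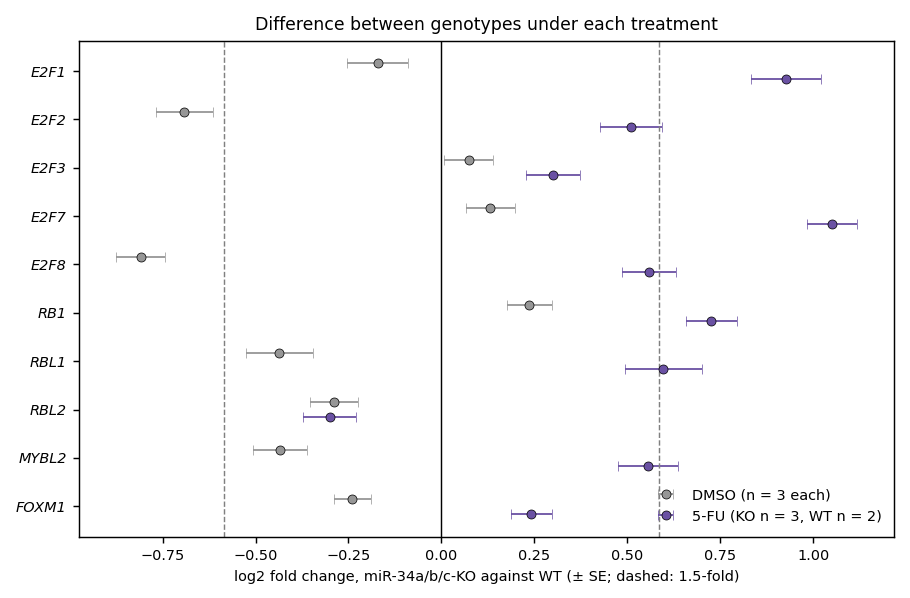
Log2 fold change of each member in KO against WT cells (x axis) with DMSO (grey) and 5-FU (purple), with SE; dashed lines mark a 1.5-fold change. E2F2, E2F8, RBL1, MYBL2 and FOXM1 lie left of 0 with DMSO and right of 0 with 5-FU, RB1 lies right of 0 in both and RBL2 left of 0 in both.

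Compared per length (RPKM, CPM divided by the exon length in kilobases), *MYBL2* was the most abundant member in each group and *FOXM1* the next. *MYBL2* was at 38.4 ± 3.3 RPKM (SD, n = 3) in WT and 28.4 ± 0.9 RPKM (n = 3) in KO cells with DMSO, and at 29.6 ± 4.4 RPKM (n = 2) in WT and 43.7 ± 0.9 RPKM (n = 3) in KO cells with 5-FU. In WT cells with DMSO, *E2F1* (17.5 RPKM), *E2F3* (11.4 RPKM), *RBL2* (9.90 RPKM), *E2F8* (9.83 RPKM), *RB1* (9.36 RPKM), *E2F2* (7.99 RPKM), *RBL1* (5.19 RPKM) and *E2F7* (4.69 RPKM) followed in this order. The libraries of *E2F8* (9.42 to 10.32 RPKM) overlapped those of *RBL2* (9.48 to 10.31 RPKM) and of *RB1* (9.30 to 9.47 RPKM). *E2F7* was last or nearly so with DMSO, at 4.69 ± 0.25 RPKM (SD, n = 3) in WT and 5.15 ± 0.35 RPKM (SD, n = 3) in KO cells. With 5-FU it was at 9.12 ± 0.45 RPKM (n = 2) in WT and at 18.9 ± 0.6 RPKM (n = 3) in KO cells, where it had rank 3, with *E2F1* at 18.2 ± 0.6 RPKM within its spread. *E2F1* went the other way in WT cells, from 17.5 to 9.55 ± 1.7 RPKM (SD, n = 2), where *RB1* (10.1 ± 1.4), *RBL2* (9.99 ± 1.4), *E2F1* and *E2F7* did not differ beyond their spread. *RBL1* was the lowest member in both KO groups and in WT cells with 5-FU.

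The partners of the members were a list of 12 genes: *E2F4*, *E2F5*, *E2F6*, the DP proteins, the MuvB core, *MYBL1* and the kinase *DYRK1A*. Their median was −0.05 between the genotypes with DMSO, −0.33 with 5-FU in WT and 0.05 in KO cells, and 0.37 in the interaction. With DMSO no partner was called between the genotypes in either direction (0 by edgeR and by DESeq2, with 2 higher and 4 lower at an unadjusted p under 0.05). *LIN52*, the MuvB subunit that holds the pocket protein, was the only one called with 5-FU in WT cells (−0.69 ± 0.10, FDR 2.35e-05), where none was called without WT 5-FU replicate 2 (0) and 2 as lower without replicate 3, and *MYBL1* (A-MYB), the close relative of *MYBL2*, the only one in KO cells (1.93 ± 0.09, FDR 2.82e-11). *MYBL1* was at 19.8 ± 1.6 CPM (SD, n = 3) in WT and 18.9 to 21.3 CPM in KO cells with DMSO, and at 20.2 and 25.9 CPM in the WT and 75.8 ± 3.6 CPM (SD, n = 3) in the KO libraries with 5-FU. Its interaction, 1.71 ± 0.14 (FDR 4.97e-07), exceeded that of every member. *LIN54* (0.79 ± 0.11, FDR 8.51e-05) and *LIN9* (0.79 ± 0.14, FDR 0.000743), which bind DNA and scaffold the core, were also called in the interaction, 4 of 12 in all. Over all genes 3.42% were called as higher in the interaction and 7.58% as higher between the genotypes with 5-FU. Between the genotypes with 5-FU 4 partners were called as higher, among them *MYBL1* (1.72 ± 0.10, FDR 1.94e-09), *LIN52* (0.74 ± 0.10, FDR 2.23e-05) and *LIN54* (0.67 ± 0.08, FDR 6.34e-06), and 2 without WT 5-FU replicate 2. *E2F4*, the main E2F of DREAM, was at 120 CPM in WT and 116 CPM in KO cells with DMSO and at 110 and 96.5 CPM with 5-FU.

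Upstream of the pocket proteins lie the D-type cyclins, their kinases and the inhibitors, of which 12 of 13 listed were tested. Called as higher were 3 between the genotypes with DMSO, 3 with 5-FU in WT and 5 in KO cells, and 4 between the genotypes with 5-FU. Over all genes these shares were 9.1%, 18.5%, 13.3% and 7.58%. Called as lower in the same comparisons were 0, 1, 2 and 0, beside 4.97%, 9.38%, 12% and 10.6% of all genes. With DMSO *CDK6*, a kinase that phosphorylates *RB1*, and the inhibitors *CDKN1A* and *CDKN2B* were called as higher in KO cells (1.89 ± 0.07, FDR 1.25e-11; 1.49 ± 0.05, FDR 9.37e-13; 1.43 ± 0.08, FDR 1.12e-09). With 5-FU *CDKN1A*, *CCND1* (cyclin D1) and *CCND3* (cyclin D3) were called as higher in both genotypes, *CCND1* by 1.15 ± 0.05 in WT (FDR 6.42e-12) and 1.06 ± 0.04 in KO cells (FDR 5.05e-12), and *CCND3* by 0.68 ± 0.07 (FDR 5.33e-07) and 1.06 ± 0.07 (FDR 8.97e-10). Called as lower with 5-FU were *CDK2* in WT cells (−0.59 ± 0.06, FDR 2.43e-07), where none was called without WT DMSO replicate 2 (0) and 2 without WT DMSO replicate 1 or WT 5-FU replicate 2, and the inhibitors *CDKN2A* (−0.84 ± 0.09, FDR 3.94e-07) and *CDKN1C* (−0.77 ± 0.11, FDR 1.19e-05) in KO cells. These 3 fall outside the naming rule and were named after their values were seen. The interaction was called for 2 genes as higher and 1 as lower, beside 3.42% and 6.66% of all genes. *CDKN1A* had a smaller increase in KO cells (−1.24 ± 0.07, FDR 1.41e-08), from a higher level with DMSO to 2481 ± 52 CPM (SD, n = 3) with 5-FU beside 2078 ± 143 CPM (SD, n = 2) in WT cells. The inhibitor *CDKN2C* (0.95 ± 0.12, FDR 3.45e-05) and the kinase *CDK2* (0.88 ± 0.08, FDR 1.08e-06) had the higher response in KO cells. With 5-FU *CDKN2B* (1.55 ± 0.09, FDR 1.35e-09), *CDK6* (1.44 ± 0.08, FDR 1.53e-09) and *CDKN2C* (1.12 ± 0.09, FDR 5.48e-08) were called as higher in KO than in WT cells.

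Downstream, most of 25 G1/S genes that E2Fs bind fell in WT cells. Over all genes 9.38% were called as lower with 5-FU in WT cells, and 12% as lower and 13.3% as higher in KO cells. With 5-FU 17 of 25 were called as lower in WT cells and none as higher (0 by edgeR and by DESeq2, with 1 at an unadjusted p under 0.05), with a median of −1.04. The largest were the helicase subunits *MCM6* (−1.35 ± 0.06, FDR 6.42e-12) and *MCM2* (−1.27 ± 0.06, FDR 2.82e-11) and the replication factor *GINS2* (−1.33 ± 0.08, FDR 4.09e-10). In KO cells 6 were called as lower and 4 as higher, with a median of 0.11, and the increases included *CCNE2* (cyclin E2, 1.62 ± 0.08, FDR 3.8e-11), *PCNA* (the replication clamp and a p53 target, 1.29 ± 0.05, FDR 8.55e-13) and *RRM2* (ribonucleotide reductase, 1.02 ± 0.05, FDR 1.12e-10). The interaction was called for 17 of 25, all toward a higher response in KO cells, beside 3.42% of all genes. It passed the test for 23, beside 10.1% of all genes. *CCNE2* (2.81 ± 0.12, FDR 1.34e-09), *CLSPN* (claspin, 1.69 ± 0.09, FDR 1.23e-08) and *CDC25A* (a phosphatase that activates *CDK2*, 1.51 ± 0.10, FDR 6.27e-08) were the largest. With DMSO 21 of 25 passed the test as lower in KO cells, beside 21.9% of all genes, with a median of −0.40, and 1 was called, *MCM6* (−0.64 ± 0.05, FDR 2.33e-08). Between the genotypes with 5-FU 6 were called as higher, beside 7.58% of all genes, with *CCNE2* (2.64 ± 0.10, FDR 9.86e-12), *ORC1* (origin recognition, 1.62 ± 0.09, FDR 9.3e-10) and *CDC25A* (1.35 ± 0.07, FDR 8.69e-10) the largest.

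Of the 30 G2/M genes bound by *MYBL2* and *FOXM1* with the MuvB core, most of those called with 5-FU were lower in both genotypes. Over all genes 9.38% were called as lower with 5-FU in WT and 12% in KO cells, and 3.42% as higher in the interaction. With 5-FU 19 of 30 were called as lower in WT cells, with a median of −0.79, among them *HMMR* (a spindle protein, −1.21 ± 0.11, FDR 8.94e-08), the mitotic kinase *PLK1* (−1.14 ± 0.06, FDR 1.64e-10) and *CDC20* (the activator of the anaphase-promoting complex, −1.12 ± 0.06, FDR 2.29e-10). In KO cells 9 were called as lower and 1 as higher, with a median of −0.33, and *PLK1* (−1.60 ± 0.06, FDR 7.61e-13), *CDC20* (−1.36 ± 0.06, FDR 4.58e-12) and *HMMR* (−1.26 ± 0.10, FDR 1.56e-08) again had the largest changes. The interaction was called for 8 of 30, with *KIF20A* (a mitotic kinesin, 0.98 ± 0.10, FDR 5.82e-06), *CDK1* (0.95 ± 0.11, FDR 1.79e-05) and *CCNF* (cyclin F, 0.83 ± 0.09, FDR 5.91e-06) the largest, for 4 without WT 5-FU replicate 2, and passed the test for 18 as higher and 2 as lower. Between the genotypes with 5-FU the median was 0.01, and 10 passed as higher and 9 as lower, beside 21.6% and 28% of all genes. Only *PLK1* was called (−0.59 ± 0.06, FDR 9.89e-07), a call absent with TMM factors and by DESeq2 (0 each). Without WT 5-FU replicate 3, 3 were called as higher and 2 as lower in that comparison, and without replicate 2 1 and 3. With DMSO 27 of 30 passed the test as lower in KO cells, beside 21.9% of all genes, with a median of −0.35, and none was called (0 by edgeR, 2 by DESeq2).

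**Figure D4:**
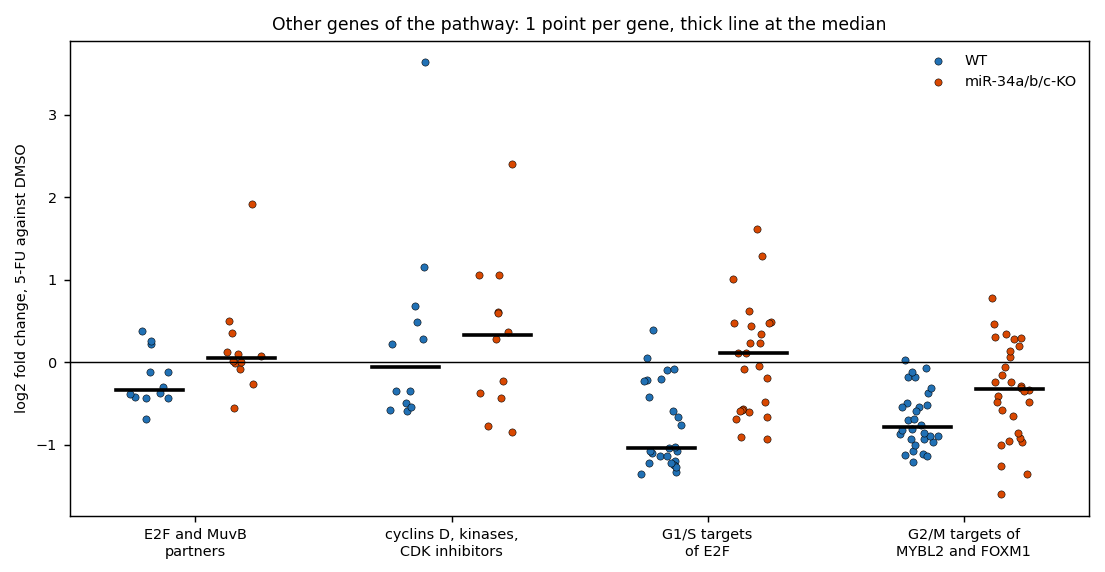
Log2 fold change with 5-FU against DMSO (y axis) of the genes of 4 lists in WT (blue) and KO cells (orange), 1 point per gene with a line at the median. The median of the G1/S list was −1.04 in WT and 0.11 in KO cells, and that of the G2/M list −0.79 and −0.33.

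The genes most like each member were found by the root-mean-square difference of centered log2 CPM over the 11 libraries. They were sought among 11564 genes with a mean of at least 5 CPM, the members left out. *E2F2* was nearest to *ANKLE1* (0.07) and, among the members, to *E2F8* (0.09), the closest pair of the 10. *E2F8* was nearest to *KIF24* (0.09), *E2F1* to the maintenance DNA methyltransferase *DNMT1* (0.12), *MYBL2* to the replication licensing factor *CDT1* (0.08), *RBL1* to *DONSON* (0.08) and *WDHD1* (0.08), and *FOXM1* to the helicase *DDX11* (0.06). *E2F7* had *INAFM2* (0.10) and the p53 target *DRAM1* (0.15) as its nearest genes, *RB1* had *GLIPR2* (0.07) and *RPAP2* (0.07), *E2F3* had *MARCHF6* (0.05) and *UHMK1* (0.05), and *RBL2* had *UTP15* (0.05) and *GTPBP4* (0.06). The spread around a flat line, for comparison, was 0.84 for *E2F7*, 0.39 for *E2F8* and 0.35 for *E2F1*, and 0.16 for *E2F3* and *RBL2* and 0.13 for *FOXM1*, so that for the last 3 a small difference also comes with little variation.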

How the data were processed

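Total RNA of HCT116 cells in 4 groups was sequenced by the authors (paired-end, NovaSeq) and aligned to GRCh38 with CLC Genomics Workbench 20.0.2 using ENSEMBL genes; strand use is not given in the sources used here. The deposited values are raw counts per gene symbol, neither filtered nor scaled. Samples were grouped by their titles. Of 12 files 11 were used: the file labelled WT 5-FU replicate 1 equals WT DMSO replicate 3 (0 of 60580 genes differ) and its column name is that of a WT DMSO sample; the 2 other WT 5-FU files carry column numbers 1 lower than their titles.

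The 16123 genes that reached 20 counts in 1 library or more were scaled by upper quartile and fitted with edgeR 4.0.16 (glmQLFit, glmQLFTest, two-sided) in R 4.3.3, with a mean per group over all 11 libraries and p-values adjusted by Benjamini-Hochberg for each comparison across the genes tested. The biological coefficient of variation was 6.72%. Filter, scaling and the 1.5-fold limit follow the study's methods, whose RUVg and DESeq2 steps are alternatives here. CPM and RPKM (exon length from GENCODE 44) were computed from the deposited counts. The script was tested on simulated data. The members and lists were chosen with earlier results of these data known. Named from each list were the up to 3 called genes with the largest change per comparison, and for each member up to 2 genes nearest in centered log2 CPM. Alternatives were another scaling, tool, filter and fold limit, RUVg, a replicate block, the copied file used or both copies left out, counts drawn down to the smallest total, and leaving out each library.

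Replicate numbers did not pair the samples: deviations of same-numbered libraries correlated at −0.09 to 0.08 over 15 pairs, with 0 of them over 0.1.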

Additional observations from a re-analysis of the deposited data

Results flagged for a closer look

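The response to 5-FU differed between the genotypes for 8 of the 10 members by the test of the interaction itself (edgeR, FDR under 0.05). All 8 had the higher response in KO cells, where 10.1% of all genes passed in that direction and 16% in the other. The difference, KO response minus WT response on the log2 scale, was 1.10 for *E2F1*, 1.20 for *E2F2*, 0.92 for *E2F7*, 1.37 for *E2F8*, 0.49 for *RB1*, 1.03 for *RBL1*, 0.99 for *MYBL2* and 0.48 for *FOXM1*. For *E2F1*, *E2F2*, *E2F8*, *RBL1*, *MYBL2* and *FOXM1* the 2 responses had opposite signs and each passed the test on its own in the main fit. The increases of *E2F1* and *RBL1* in KO cells did not pass in every fit with 1 library left out. They failed, for example, without KO DMSO replicate 3 (*E2F1*, FDR 0.101) and without KO 5-FU replicate 1 (*RBL1*, FDR 0.0671). For *E2F7* both responses were increases. For *RB1* the increase in KO cells passed and the change in WT cells did not. Each value rests on 2 WT libraries with 5-FU and on lines grown from single cells.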

How the results depend on the processing

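Members called (2 between the genotypes with DMSO, 3 with 5-FU in WT and 5 in KO cells, 4 between the genotypes with 5-FU and 6 in the interaction) changed with the fold rule, the filter, the scaling or tool, and with how the copied file and RUVg were treated. A filter of at least 20 counts in every library lost 1 call of a member. With TMM factors and by DESeq2, 6 members were called between the genotypes with 5-FU in place of 4, *E2F8* and *MYBL2* being added. With no minimum fold change the first 4 counts were 7, 7, 9 and 10, beside 46.3%, 60.2%, 60.4% and 49.6% of all genes, so that 7 of 10 with 5-FU in WT cells is near the share of all genes. With glmTreat, which tests against the 1.5-fold limit, 1 member was called between the genotypes with DMSO, beside 5.76% of all genes. It called 3 with 5-FU in KO cells (13.9% of all genes) and 2 between the genotypes with 5-FU (7.36%). Over all comparisons, 6 calls of members were lost with glmTreat. With 1 RUVg factor both 5-FU counts were 0 (3 and 1 of all 16123 genes); the factor lay to 98.2% between treatments. With the copied file used as labelled the count was 0 with 5-FU in WT cells (0 of all genes) and 2 between the genotypes with 5-FU. Leaving out 1 library gave 2 to 2, 2 to 3, 4 to 5, 3 to 5 and 6 to 7. A lone library left in WT 5-FU is then assumed to vary like the other groups. The block on replicate numbers of the titles left the counts at 2, 3, 5, 4 and 6 and changed no call of a member, and the same held for the numbers of the column names, an alternative chosen after seeing the data.

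Of 1150 log2 values of members under alternatives, 1069 kept direction and side of the threshold, 30 gained and 25 lost a call and 26 changed sign. The values with a changed sign under RUVg were *RBL1* 0.014 and *RBL2* 0.058 (DMSO), *RBL1* 2.03 (5-FU in WT), and *E2F1* −2.36, *RBL2* 1.93, *MYBL2* −0.577 and *FOXM1* −0.035 (5-FU in KO). For *RBL2*, TMM factors gave −0.007 (WT), 0.041 (KO) and 0.048 (interaction), DESeq2 −0.017, 0.05 and 0.067, no filter 0.03 (KO) and 0.019 (interaction), and counts drawn down 0.007 (KO). Over the leave-one-out fits, values for 5-FU in WT ranged from −0.052 to 0.147 (*E2F3*), −0.037 to 0.237 (*RB1*) and −0.138 to 0.144 (*RBL2*), and *RBL2* from −0.014 to 0.019 in KO and from −0.148 to 0.137 in the interaction. Of 920 counts over the lists 810 stayed within 1.5 times and 110 did not. The cause was not tested. Depth limits no member, since each had at least 537 counts in every library.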
